A study of Mus musculus with 3 samples.

Results

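Upper spinous keratinocytes were the Krt1- and Krt10-expressing epidermal cells that carried high levels of F3, Mboat2, Dsc1 and Kctd12. They were chosen by a rule on unique molecular identifiers (UMIs, one per captured transcript). Cells were kept with 500 or more genes and no more than 10% of UMIs from mitochondrial genes. A kept cell was taken as spinous when Krt1 plus Krt10 made up at least 0.5% of its UMIs, Krt5 plus Krt14 less than 0.5%, Lor less than 1%, and Krt16 plus Sprr1b fewer than 10 UMIs. A spinous cell was called upper when F3, Mboat2, Dsc1 and Kctd12 together reached 0.1% of its UMIs and lower when they did not. The rule found 490 upper spinous cells among 6078 deposited barcodes, of which 5340 passed the limits on genes and mitochondrial share, and 1527 lower spinous cells. The study profiled ear epidermis of C57BL/6N mice at 9 weeks of age in 3 single-cell libraries of 1 group, with no treatment or genotype contrast. Per the labels, the epidermis was lifted with dispase, cells were freed with trypsin and picked from the basal side, and the suspension was frozen before droplet capture with a 10x Genomics V(D)J reagent kit, to which short cDNA fragments were added back before adapter ligation. The labels do not say whether the 3 replicates came from separate mice, so the tests below measure the spread between libraries.

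Keratinocytes of the epidermis divide in the basal layer and differentiate as they move outward through the spinous and granular layers to the cornified layer. Spinous cells replace the basal keratins Krt5 and Krt14 with Krt1 and Krt10 and are joined by abundant desmosomes. Towards the granular layer they build tight junctions, lamellar bodies filled with lipids and proteases, and the precursor proteins of the cornified envelope, of which loricrin (Lor) is a late and abundant one.

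The rule chose cells on the sum of 4 genes, and the make-up of that sum is given as a description. Of the 490 upper spinous cells, 411 had UMIs of all 4 genes, 54 of 3, 18 of 2 and 7 of 1. In 90 members a single gene gave over 50% of the sum, most often Kctd12 (57 cells). Over all members, Kctd12, an auxiliary subunit of GABA-B receptors, gave 28.2% of the summed marker UMIs. F3, which encodes tissue factor, the starter of the extrinsic coagulation pathway, gave 27.0%. Mboat2, a membrane-bound lysophospholipid acyltransferase, gave 22.8% and Dsc1, the desmocollin of the upper epidermis, 22.0%. A cell could also pass on few molecules: the members had a median of 33 marker UMIs, and the lowest had 1.

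The genes lie on different chromosomes in the annotation of GRCm38 (mm10). F3 is a gene of the plus strand at chr3:121723537-121735048, Mboat2 one of the plus strand at chr12:24830879-24964397 and Kctd12 one of the minus strand at chr14:102976581-102982637. Dkkl1, which encodes a secreted relative of the Dickkopf proteins and was a proposed marker outside the rule, lies on the minus strand at chr7:45207519-45212147.

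The 250 bases before the RefSeq start (GRCm38.p6) are shown for 2 marker genes, because the 2 windows differ in the motifs they hold. Capitals mark matches to the AP-1 motif TGANTCA or the CCAAT box, searched on both strands. The F3 window is chr3:121723287-121723536, plus strand, and the Mboat2 window is chr12:24831349-24831598, plus strand. The Mboat2 window lies inside the gene as located above, because the 2 annotations used place its start differently.
F3: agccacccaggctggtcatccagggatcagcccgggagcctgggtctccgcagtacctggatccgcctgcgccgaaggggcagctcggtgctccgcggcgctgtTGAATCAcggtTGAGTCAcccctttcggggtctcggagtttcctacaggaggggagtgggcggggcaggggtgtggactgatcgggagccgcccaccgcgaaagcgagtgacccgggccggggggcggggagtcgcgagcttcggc
Mboat2: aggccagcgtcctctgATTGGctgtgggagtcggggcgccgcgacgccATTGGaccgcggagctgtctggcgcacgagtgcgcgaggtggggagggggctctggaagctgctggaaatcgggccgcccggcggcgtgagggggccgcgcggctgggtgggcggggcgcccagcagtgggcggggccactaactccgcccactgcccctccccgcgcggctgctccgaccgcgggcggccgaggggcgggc
F3 held a pair of AP-1 matches, starting 146 and 135 bases before the start, and its window overlaps an exon of an antisense transcript (Gm43823). Mboat2 held CCAAT matches on the opposite strand at 234 and 202 bases before the start and no AP-1 match. AP-1 matches were in the window of 7.82% of the 27025 gene symbols in the RefSeq table and CCAAT matches in 37.5%. Of the 5 genes, 4 were in the table, and no motif of the 6 searched was shared by more than 1 of them. A match is a description of the letters and not of a bound factor.

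The levels of the markers in each library are given as CPM, the UMIs of a gene scaled to a fixed total of UMIs in the summed cells of a class, with library factors from the trimmed mean of M-values (TMM), as single values or as mean ± SD over the 3 libraries. F3 stood at 576, 564.4 and 624 CPM in the upper spinous cells of replicates 1, 2 and 3, against 14.5, 17.2 and 25.01 in the lower spinous cells, a gap that the rule itself sets. Mboat2 stood at 459.5, 499.9 and 516 CPM against 26.2, 28.4 and 29.2. Dsc1 stood at 477, 469.6 and 495 CPM against 63.5, 53.0 and 77.4, and Kctd12 at 551, 594 and 673 against 63.7, 94.98 and 87.6. The libraries of 1 class lay close together for all 4 genes and the 2 spinous classes did not overlap, which is no finding here.

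In Lor-high cells, which are the cells with at least 1% Lor and under 0.5% Krt5 plus Krt14, the order of the markers against upper spinous cells depended on the scaling, except for Kctd12. With TMM Kctd12 stood at 300.1 ± 23.0 CPM against 606 ± 61.8 in upper spinous cells. F3 stood at 807 ± 60.1 against 588 ± 31.6 CPM, and Mboat2 (528 ± 86.8 against 492 ± 29.3) and Dsc1 (493 ± 86.3 against 481 ± 13.3) lay within the spread of the libraries. With total UMIs in place of TMM all 4 were lower in Lor-high cells: F3 at 482 ± 28.3 against 556 ± 26.7 CPM, Mboat2 at 314 ± 38.0 against 465 ± 28.9, Dsc1 at 293 ± 38.2 against 454 ± 10.0 and Kctd12 at 179 ± 7.32 against 573 ± 57.5. The share of cells with an F3 UMI, with each cell thinned to 3000 UMIs, was 64.2%, 59.0% and 59.0% in Lor-high cells of replicates 1, 2 and 3, against 68.8%, 69.1% and 71.3% in upper spinous cells. For Mboat2 these shares were 47.2%, 50.7% and 49.7% against 76.3%, 71.1% and 72.9%, and for Dsc1 41.5%, 52.8% and 52.3% against 80.0%, 70.1% and 65.2%. In basal cells, gated on Krt5 and Krt14, the 4 genes had means between 1.96 and 3.52 CPM. In every library Kctd12 was higher in the upper spinous class than in any other of the 5 classes. Upper spinous cells were chosen on the sum of these 4 genes and Lor-high cells were not. The rule thus favours upper spinous cells in these levels and shares.

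Dkkl1 was not used by the rule but was proposed with these data in view, so its levels are a description. It stood at 840, 866 and 749 CPM in upper spinous cells, at 107, 131 and 125 in lower spinous cells, and at 997, 922 and 1019 in Lor-high cells. The log2 difference between upper and lower spinous cells was 2.77 ± 0.18 (SE). When each cell was thinned to 3000 UMIs, 88.8%, 84.8% and 78.5% of upper spinous cells in replicates 1, 2 and 3 had a Dkkl1 UMI, against 21.3%, 21.5% and 23.4% of lower spinous cells and 67.9%, 64.6% and 65.1% of Lor-high cells. The Lor-high shares thus lay below those of upper spinous cells although the TMM-scaled levels lay above, and with total UMIs the Dkkl1 level was also lower, at 585 ± 19.2 against 774 ± 63.3 CPM. In basal cells the thinned shares were 0.231%, 0% and 0.676%. The level of free RNA was not measured. Thinning left out 1, 19 and 5 upper spinous cells that held fewer UMIs. Without thinning, the shares of upper spinous cells were 97.5%, 95.96% and 95.2%.

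**Figure D1:**
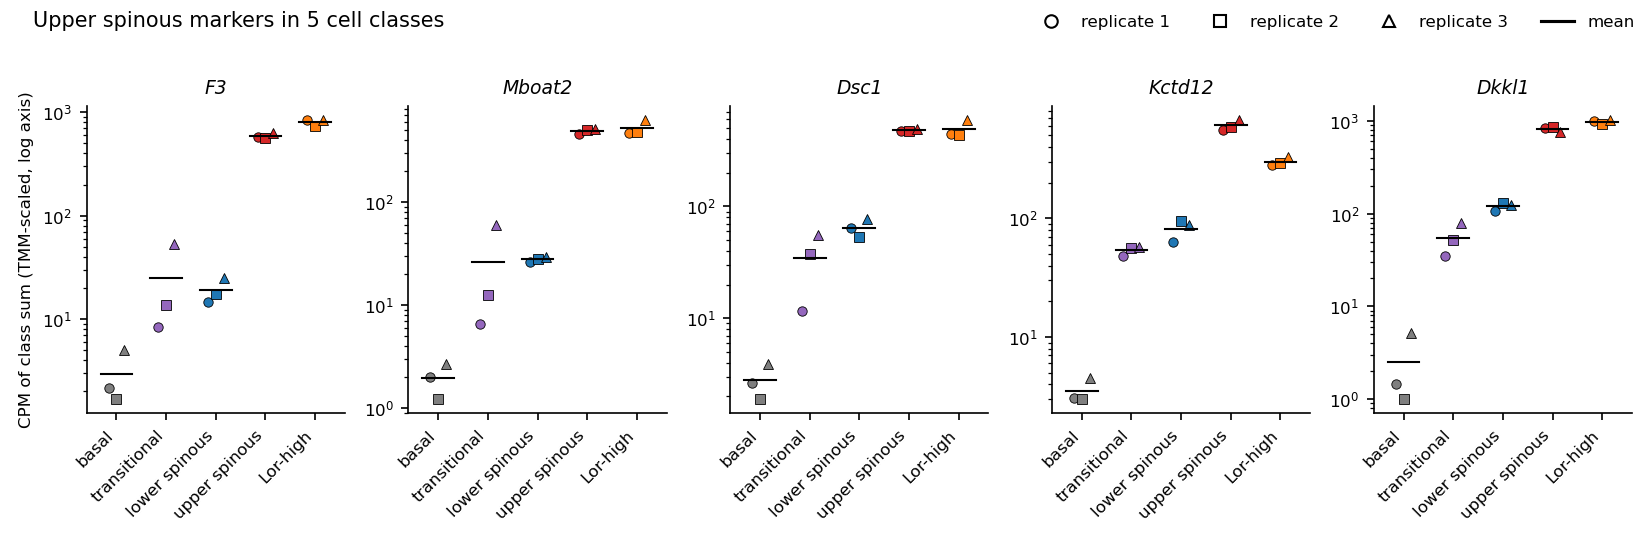
Levels of the 4 rule genes and of Dkkl1 in 5 cell classes (CPM of the class sum, log axis), with one symbol per library and the mean as a bar. Upper spinous cells were chosen on the 4 rule genes and Lor-high cells were not. Kctd12 falls from 606 CPM in upper spinous to 300.1 CPM in Lor-high cells, and is lower with total UMIs too. F3 and Dkkl1 stand at 807 and 979 CPM in Lor-high cells against 588 and 818 in upper spinous cells with the TMM scaling plotted, but are lower there with total UMIs (482 against 556, and 585 against 774).

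The summed marker share ran over the spinous cells without a gap at 0.1%. Of the 2017 spinous cells, 609 had no marker UMI, 198 had a share between 0.05% and 0.1%, 268 between 0.1% and 0.2%, 190 between 0.2% and 0.4%, and 32 more than that. The 61 members just inside the limit (0.1% to 0.12%) had a median of 19 marker UMIs, and the 64 lower spinous cells just outside it (0.08% to 0.1%) a median of 14. The class is a range of this score, and whether it forms a cluster in other genes was not tested. Upper spinous cells made up 23.1%, 24.6% and 24.4% of the spinous cells in replicates 1, 2 and 3, with exact binomial 95% intervals of 18.8% to 27.9%, 21.9% to 27.6% and 21.4% to 27.6%. They made up 8.58%, 10.1% and 8.52% of the cells kept. These shares describe a trypsin suspension and not the tissue.

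**Figure D2:**
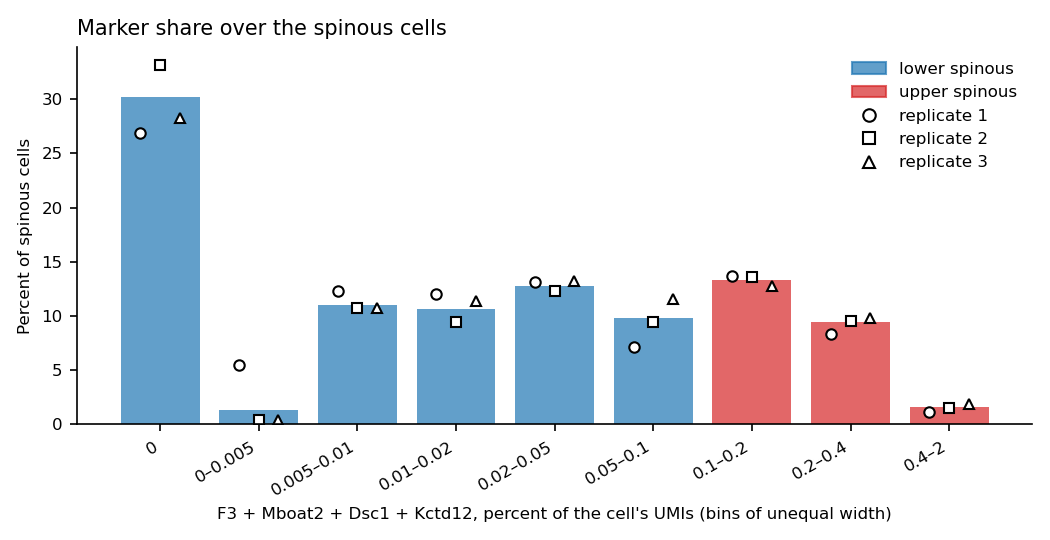
Share of the 2017 spinous cells in each bin of the summed F3, Mboat2, Dsc1 and Kctd12 share (percent of the cell's UMIs, bins of unequal width), with bars for all cells and symbols for the 3 libraries. The bins on each side of 0.1% hold 198 and 268 cells.

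Upper spinous cells differed from lower spinous cells in depth and in the makeup of their RNA. They had medians of 24408, 17929 and 18182 UMIs per cell against 20271, 12724 and 14206. Mitochondrial genes gave medians of 2.87%, 2.74% and 2.83% of UMIs against 4.12%, 3.82% and 3.73%, and ribosomal protein genes 27.2%, 25.7% and 28.1% against 31.97%, 32.5% and 31.7%. In Lor-high cells the ribosomal share was 14.3%, 15.9% and 15.6%. Of the members, 213 had no Lor UMI and 277 had at least 1, among them 106 with a Lor share of 0.1% or more. By replicate, 40.7%, 47.5% and 39.8% of upper spinous cells had no Lor UMI. These shares were 68.4%, 74.0% and 57.8% in lower spinous and 77.5%, 76% and 58.0% in basal cells. The 8 granular markers other than Lor, which the rule limits, all had UMIs, and their sum was 1416 to 2132 CPM of all UMIs in upper spinous cells, 34.2 to 63.3 in lower spinous cells and 46250 to 58030 in Lor-high cells. It was 114 to 188 CPM in basal and 77.7 to 704 in transitional cells, above the lower spinous cells. The 7 basal markers summed to 82.4 to 211 CPM against 595 to 816.5 in lower spinous cells. Markers of several other cell types were near 0: the 4 Merkel cell markers had no UMI in upper spinous cells, the 5 T cell markers summed to 1.38 to 3.64 CPM with Trdc at 0, and of the 5 fibroblast markers only Dcn had UMIs. The Langerhans list summed to 189 to 288 CPM, of which Epcam, also expressed by keratinocytes, gave nearly all. Epcam stood at 237 ± 48.6 CPM. The 5 sebaceous and upper follicle markers summed to 281.5 to 322.9 CPM in upper spinous cells, more than in lower spinous (213 to 243.6) or Lor-high cells (72.5 to 86.9). Elovl3 was at 0, and Scd1 (186 ± 12.5 CPM of all UMIs) and Fasn (113 ± 9.21), which encode general enzymes of fatty acid synthesis, gave nearly all of that sum. The 6 hair follicle markers summed to 3.58 to 33.6 CPM, with Cd34, Lgr5, Krt75 and Krt27 at 0, against 2.07 to 32.9 in lower spinous and 38.65 to 51.2 in Lor-high cells. The part of these markers in the differences below was not tested. The part of depth and RNA makeup in the differences below was not tested beyond the thinned cells and the limits on Lor. The 3 libraries shared 3, 4 and 9 barcodes in pairs, and none of the shared barcodes was an upper spinous cell in both.

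Upper and lower spinous cells differed in most measured genes, 59.5% of those tested. With the 11 rule genes and the mitochondrial genes left out, 3098 of 10756 genes tested (28.8%) were higher in upper spinous cells and 3305 (30.7%) lower, at an adjusted p of 0.05 in edgeR's quasi-likelihood test of the summed UMI counts with the library as a block. At least 2-fold, 1264 (11.8%) were higher and 1806 (16.8%) lower. The median log2 difference of all genes was -0.07. With total UMIs in place of TMM that median fell to -0.24, and the calls became 2478 higher and 4182 lower. A count on a gene list below is read against those shares. The classes were drawn from the same cells by the level of 4 of their genes, so the tests describe how repeatable the differences of the other genes were over libraries.

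Ereg, Cdsn and Klk7 were among the 10 largest rises. Ereg, an epidermal growth factor receptor ligand, stood at 34.8, 57.3 and 32.7 CPM in upper spinous cells and at 0, 0.217 and 0.226 in lower spinous cells, a log2 difference of 7.76 ± 0.70 (adjusted p = 3.87e-09). All upper spinous libraries lay above all lower ones, though Ereg rested on 4 UMIs in the lower class. Cdsn, the corneodesmosin of the outer desmosomes, stood at 1128, 1343 and 828 CPM against 5.84, 19.7 and 6.34 (log2 6.69 ± 0.50, adjusted p = 1.86e-10). Klk7, the chymotrypsin-like kallikrein that cleaves corneodesmosin, stood at 1129, 1161 and 924.5 CPM against 15.6, 20.5 and 16.5 (log2 5.92 ± 0.42). Again no library overlapped between the classes. The others of the 10 largest rises were Slc15a1 (log2 7.18), a peptide transporter, Serpina12 (7.12), the serpin vaspin, the chemokine Ccl6 (6.89), Nccrp1 (6.32), Wfdc21 (6.22) and Wfdc18 (5.90), which encode whey acidic protein domains, and Lypd5 (6.04) of the Ly6 family.

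The largest falls were of genes with diverse roles, among them a transcription factor, a hemidesmosomal collagen and a metallothionein. Sectm1a stood at 0.552, 0.864 and 0.635 CPM in upper spinous cells and at 28.1, 25.6 and 27.4 in lower spinous cells (log2 -5.21 ± 0.34, adjusted p = 2.56e-11). Mesp2, a basic helix-loop-helix factor, stood at 3.87, 3.46 and 3.81 against 50.4, 50.7 and 48.4 CPM (log2 -3.75 ± 0.18, adjusted p = 1.96e-13), with little spread between libraries in either class. The others were Pyy (log2 -5.59), the gut hormone peptide YY, the actin-capping gene Capg (-4.41), Plek2 (-4.41), the zinc finger gene Plagl1 (-4.00), S100a10 (-3.98), the hemidesmosomal collagen gene Col17a1 (-3.93), the caveolin gene Cav2 (-3.80) and the metallothionein gene Mt2 (-3.75). Pyy varied widely between libraries of lower spinous cells, from 12.03 to 71.99 CPM.

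**Figure D3:**
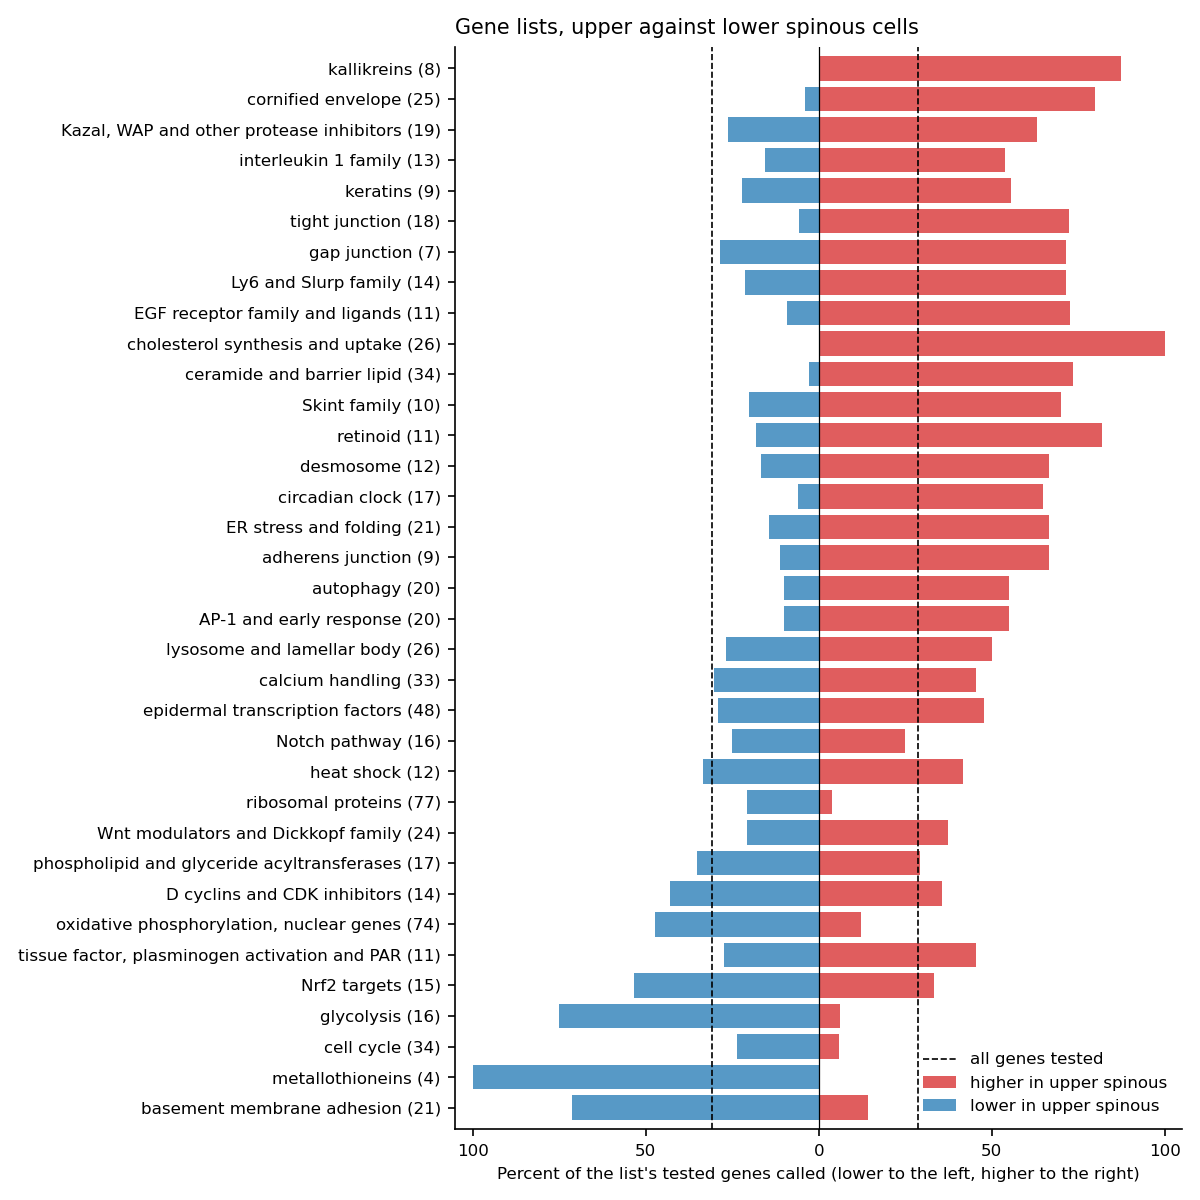
Percent of each list's tested genes (number in brackets) that were higher (right) or lower (left) in upper than in lower spinous cells, ordered by the list's median log2 difference, with dashed lines at 28.8% and 30.7% for all genes tested. Kallikreins and cornified envelope genes lie at the top, and basement membrane genes at the bottom.

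Of 9 keratin genes tested, 5 rose and 2 fell (median log2 1.22). Krt2, a suprabasal keratin, stood at 23730, 17730 and 29970 CPM in upper spinous cells against 13140, 10630 and 13400 in lower spinous cells (log2 0.91 ± 0.13). Krt23 rose by 4.40 ± 0.27 to 240.3 ± 77.4 CPM. Krt77 rose by 3.94 ± 0.67, but its level depended on the library: 392, 2036 and 197 CPM in upper spinous cells against 0.354, 102 and 54.1 in lower spinous cells. Krt79, a keratin of the upper hair follicle, fell on 3 UMIs against 150 (ratio 20.0, 95% counting interval 6.72 to 98.1), a call that rested on replicate 3 of the lower spinous cells, with 16.8 CPM. Without replicate 3 the Krt79 difference was 0.42 and not called. Of the rule keratins, Krt10 was at 22960 ± 2749 CPM against 13350 ± 1366 and Krt1 at 576, 341 and 112 CPM by library against 542, 425 and 199.

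Junction genes changed in both directions, desmosome genes among them. Among desmosome genes, 8 of 12 tested rose and 2 fell (median log2 0.59). Dsg1a, the suprabasal desmoglein, stood at 1497, 1463 and 1861 CPM against 798, 787 and 854 (log2 0.98 ± 0.10), and the plakophilin gene Pkp1 at 1231, 1195 and 1518 against 838, 813 and 867 (log2 0.64 ± 0.09). Dsg3, the basal desmoglein, had 1 UMI over the 3 upper spinous sums and 134 over the lower ones, a ratio of 53.6 with a 95% counting interval of 9.46 to 2134. Dsg2 had 2 UMIs against 33 (ratio 6.60, interval 1.69 to 56.8), and its call was lost in 3 of 16 alternatives. Tight junction genes rose in 13 of 18 and fell in 1 (median log2 1.13). Cldn23 stood at 92.2, 113 and 114 CPM against 2.65, 6.29 and 3.17 (log2 4.66 ± 0.21), and Cgn, the junctional plaque protein cingulin, at 145 ± 35.5 CPM against 14.9 ± 1.33 (log2 3.27 ± 0.16). Cldn3 had 20 UMIs against 0, which makes it at least 16.7-fold higher with 3 UMIs as the floor over the lower class. Its sum came mostly from replicate 2, at 4.90 CPM against 0.552 and 0.635. Its call was lost with Lor at 0 UMIs. Marveld3 (log2 -0.95) was the 1 tight junction gene that fell, a call lost in 2 of 16 alternatives (log2 -0.74 without replicate 1 and -0.52 with Lor at 0).

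Gap junction and adherens junction genes divided by member. Gjb2 (log2 2.41 ± 0.17) and Gjb6 (log2 2.74 ± 0.32), connexin genes of the differentiated epidermis, rose. Gja1, which encodes connexin 43 of the lower layers, fell from 58.6 ± 16.1 to 19.1 ± 6.80 CPM (log2 -1.59 ± 0.16). In all, 5 of 7 gap junction genes rose and 2 fell. Of 9 adherens junction genes 6 rose and 1 fell. Nectin4 stood at 308, 306 and 326 CPM against 108, 107 and 103 (log2 1.57 ± 0.09), and Afdn, the nectin-binding afadin, at 192, 192 and 184 against 76.4, 81.0 and 71.1 (log2 1.31 ± 0.08). The 1 that fell was Cdh3, P-cadherin of basal cells, with 3 UMIs against 95 (ratio 12.7, interval 4.21 to 62.5).

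Most cornified envelope and kallikrein genes rose in upper spinous cells. Of 25 cornified envelope genes tested, 20 rose and 1 fell, with a median log2 difference of 2.47. Hrnr, a filaggrin-like envelope protein, stood at 806, 1135 and 837 CPM in upper spinous cells against 3.54, 33.5 and 11.1 in lower spinous cells (log2 5.85 ± 0.63). Flg2 stood at 152, 455 and 236 CPM against 2.12, 9.00 and 4.19 (log2 5.70 ± 0.59), and Ivl, involucrin, at 236, 284 and 222 against 13.3, 18.1 and 16.5 (log2 3.96 ± 0.20). Sprr2d, a small proline-rich envelope protein, was called on 19 UMIs against 1 (ratio 47.5, interval 7.55 to 1973), and the call was lost in 2 of 14 alternatives. Tgm3 fell (log2 -0.81 ± 0.17), though its call was lost in thinned cells. Among kallikreins, 7 of 8 rose and none fell (median log2 4.09), Klk5 from 21.9 ± 0.640 to 384 ± 24.4 CPM (log2 4.14 ± 0.21) and Klk13 with a log2 difference of 4.26 ± 0.38. Spink5, the inhibitor of these proteases, rose with them, to 1903, 2433 and 1647 CPM from 120.3, 202 and 143 (log2 3.69 ± 0.22). Of 19 Kazal, whey acidic protein and other protease inhibitors, 12 rose and 5 fell, Stfa1 among those that fell (log2 -3.74).

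Because 277 members had a Lor UMI, the comparison was repeated on spinous cells with less of it, a choice made after the data were seen. Lor UMIs were also found in lower spinous and basal cells, so a Lor UMI alone does not mark a member that expresses Lor. With Lor under 0.1% in both classes, 16 of 25 envelope genes rose, and with Lor at 0 UMIs, 13 of 25 did. The median log2 difference of the envelope genes went from 2.47 to 1.58 and 1.40. Cdsn differed by 7.01 and 6.91 on the log2 scale at these limits, Klk7 by 5.76 and 5.33, and Hrnr by 6.02 and 5.41, in place of 6.69, 5.92 and 5.85 in all members. Slurp1 differed by 5.19 and 4.62 in place of 5.49, Flg2 by 4.46 and 3.797 in place of 5.70, Wfdc21 by 5.55 and 4.65 in place of 6.22, and Lypd2 by 5.67 and 4.63 in place of 7.21. Smpd3, a neutral sphingomyelinase, went from 4.74 to 3.34 and 2.12, and its call was lost with Lor at 0. Of 110 called genes whose difference between upper and lower spinous cells is reported, 109 were tested with Lor at 0 and 9 lost the call there. The totals went from 3098 to 2801 and 2181 higher and from 3305 to 2994 and 2241 lower.

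**Figure D4:**
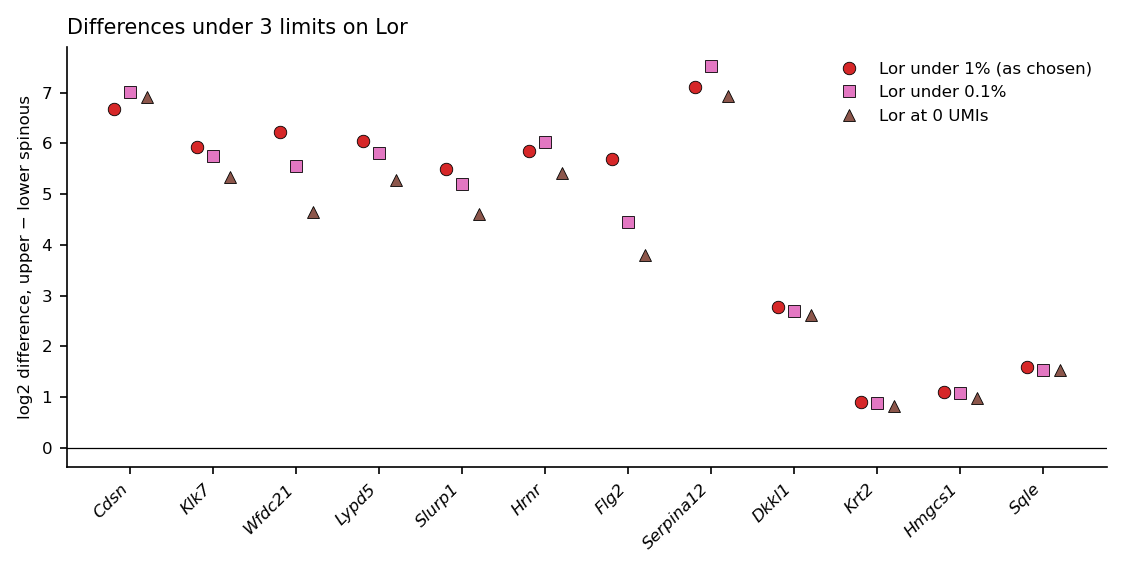
Log2 difference between upper and lower spinous cells for 12 genes, with the spinous cells as chosen (Lor under 1%), with Lor under 0.1% and with Lor at 0 UMIs. Cdsn, Krt2, Sqle and Dkkl1 keep nearly the same difference at all 3 limits, while Flg2 and Wfdc21 fall by more than 1.

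The upstream windows of 2 envelope genes are shown because AP-1 and TATA matches were frequent in this list. Capitals mark AP-1 (TGANTCA), the TATA box (TATAAA) and the C/EBP motif (TTGCNNAA). The Ivl window is chr3:92573736-92573985, minus strand, and the Flg2 window is chr3:93197023-93197272, plus strand.
Ivl: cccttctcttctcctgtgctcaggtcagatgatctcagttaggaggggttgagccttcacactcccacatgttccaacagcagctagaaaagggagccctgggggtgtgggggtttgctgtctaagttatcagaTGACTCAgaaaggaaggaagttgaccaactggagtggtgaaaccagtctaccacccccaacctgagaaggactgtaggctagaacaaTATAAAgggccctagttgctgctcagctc
Flg2: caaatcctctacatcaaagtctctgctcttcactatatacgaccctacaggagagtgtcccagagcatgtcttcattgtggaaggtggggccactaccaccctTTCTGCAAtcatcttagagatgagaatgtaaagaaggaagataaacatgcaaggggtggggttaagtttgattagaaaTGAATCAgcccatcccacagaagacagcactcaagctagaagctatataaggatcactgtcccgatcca
Ivl held an AP-1 match 116 bases and a TATA box 29 bases before the start, and Flg2 an AP-1 match at 69 and a C/EBP match at 147 bases. Of 31 envelope genes in the RefSeq table, 15 (48.4%) held an AP-1 match and 15 (48.4%) a TATA box, against 7.82% and 14.3% of all symbols. None of the 11 kallikreins held either. Among genes at least 2-fold higher in upper spinous cells, 96 of 922 in the table (10.4%) held an AP-1 match, among those at least 2-fold lower 74 of 1418 (5.22%), and among all tested 466 of 8452 (5.51%). Several envelope genes arose by duplication and are not independent.

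Every tested gene of cholesterol synthesis and uptake was higher in upper spinous cells. All 26 rose, with a median log2 difference of 0.93, and 25 rose with total-UMI scaling. Hmgcs1, which makes the HMG-CoA of the pathway, stood at 408, 338 and 455 CPM against 218.5, 163 and 183.5 (log2 1.09 ± 0.10). Sqle, squalene epoxidase, stood at 144, 157 and 192.5 CPM against 65.5, 46.6 and 54.2 (log2 1.60 ± 0.15). Pmvk, phosphomevalonate kinase, had the largest difference (log2 1.68 ± 0.10), followed by Insig1 (1.67 ± 0.18), the sterol-sensing retention protein, and Sc5d (1.62 ± 0.09), a late desaturase of the pathway. No library of either class overlapped for these 5 genes. With Lor at 0 the differences of Hmgcs1 and Sqle were 0.97 and 1.53.

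The Hmgcs1 window, chr13:119690101-119690350, plus strand, is shown as the single cholesterol gene with a match to the sterol element TCACNCCAC. Capitals mark that element and the CCAAT boxes.
Hmgcs1: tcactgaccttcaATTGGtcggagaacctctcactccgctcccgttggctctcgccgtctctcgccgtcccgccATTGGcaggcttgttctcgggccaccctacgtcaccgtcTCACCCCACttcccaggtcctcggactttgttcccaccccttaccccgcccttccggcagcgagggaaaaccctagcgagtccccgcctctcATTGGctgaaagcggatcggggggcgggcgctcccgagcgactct
The sterol element starts 137 bases before the start, between CCAAT boxes at 237, 176 and 45 bases. CCAAT boxes were in 17 of 19 cholesterol genes found in the table (89.5%), against 37.5% of all symbols and 40.4% of the tested genes. The sterol element in these letters was in 1 of 19, against 1.22% of all symbols.

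Genes of ceramides and other barrier lipids rose in 25 of 34 and fell in 1 (median log2 0.92). Elovl1, an elongase of very long fatty acids, stood at 692.5, 812 and 644 CPM against 146, 142 and 140 (log2 2.33 ± 0.15). Smpd1, acid sphingomyelinase, stood at 135, 143.5 and 159 against 13.98, 15.1 and 15.6 (log2 3.29 ± 0.13). Cers4, a ceramide synthase, was the member that fell, from 18.05 ± 5.08 to 2.43 ± 2.24 CPM (log2 -3.12 ± 0.33). Beside the rule gene Mboat2, 5 of 17 other acyltransferases of phospholipids and glycerides rose and 6 fell. These shares were near those of all genes tested (28.8% and 30.7%). Agpat4 (log2 1.79 ± 0.11) and Agpat5 (2.82 ± 0.15) rose and Agpat2 fell (-3.50 ± 0.33).

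Transcription factors of the epidermis changed in both directions, 23 of 48 up and 14 down (median log2 0.18). Grhl1, a grainyhead factor of the epidermal barrier, stood at 335, 362 and 367 CPM against 113, 121 and 118 (log2 1.60 ± 0.08), and Klf4 at 1042, 1167 and 1491 against 589.5, 682 and 728 (log2 0.88 ± 0.12). Prdm1, which encodes BLIMP1, rose from 0.428 ± 0.218 to 7.80 ± 0.978 CPM (log2 4.01 ± 0.65), but with Lor at 0 the difference was 2.14 and not called (adjusted p = 0.28 in edgeR). Ovol2 fell on 1 UMI against 69 (ratio 27.6, interval 4.79 to 1106) and Ppara on 1 against 41 (ratio 16.4, interval 2.78 to 664), the latter not called with Lor at 0. Among AP-1 and early response genes 11 of 20 rose and 2 fell, and 7 rose and 4 fell with total-UMI scaling. Egr2 stood at 54.1, 61.7 and 46.7 CPM against 1.06, 2.39 and 5.09 (log2 4.17 ± 0.28), and Egr3 (2.16 ± 0.13) and Maff (2.38 ± 0.23) also rose, while Ier3 fell (-0.69 ± 0.19) with overlapping libraries.

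Ligands and surface proteins of signalling families followed. Of 11 genes of the EGF receptor family, 8 rose and 1 fell, with Ereg, Areg (log2 1.73 ± 0.33) and the feedback inhibitor Errfi1 (1.62 ± 0.15) leading and Lrig1 lower (-1.12 ± 0.45, lost in 7 of 16 alternatives). Of 13 interleukin 1 family genes, 7 rose and 2 fell (median log2 1.30). With Lor under 0.1% 5 rose and 2 fell (median 0.60), and with Lor at 0 UMIs 4 rose and 1 fell (median 0.35). Il1f5, the gene of the interleukin 36 receptor antagonist, stood at 239, 301 and 226 CPM against 12.4, 16.4 and 14.6 (log2 4.13 ± 0.22), Il1f8 was at 10.1 ± 2.71 against 0.376 ± 0.0508 CPM (4.69 ± 0.43), and Il33 fell (-2.23 ± 0.33). Of 10 Skint genes, members of an epidermal immunoglobulin family, 7 rose and 2 fell. Skint3 stood at 146, 176 and 168 CPM against 29.2, 27.0 and 27.3 (log2 2.57 ± 0.11) and Skint10 rose by 1.58 ± 0.11. Of 14 Ly6 and Slurp genes, 10 rose and 3 fell: Slurp1, a secreted epidermal Ly6 protein, stood at 1525, 2026 and 1259 CPM against 25.5, 51.6 and 33.3 (log2 5.49 ± 0.49), and Ly6a fell (-2.82 ± 0.21). Lypd2 had 86 UMIs against 1 (ratio 215, interval 37.6 to 8586).

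Around the rule gene F3, the other genes of plasminogen activation and protease-activated receptors did not move as a set, with 5 of 11 higher and 3 lower, or 3 and 3 with total-UMI scaling. St14, the membrane protease matriptase, rose from 11.6 ± 0.219 to 54.5 ± 6.59 CPM (log2 2.26 ± 0.12). Plau, urokinase, fell (log2 -3.09 ± 0.25), as did S100a10 (-3.98 ± 0.21), a subunit of a plasminogen receptor. Around Dkkl1, 9 of 24 Wnt modulators rose and 5 fell, and Wnt10a (-3.62 ± 0.37) and Sfrp1 (-2.51 ± 0.30), a secreted Wnt antagonist, fell most. Of 16 Notch pathway genes 4 rose and 4 fell (2 rose with total-UMI scaling), shares below those of all genes tested (28.8% and 30.7%). The ligand gene Jag1 stood at 43.1, 40.1 and 39.4 CPM against 18.4, 17.0 and 17.6 (log2 1.20 ± 0.13). Among calcium-handling genes (15 of 33 up and 10 down, or 13 and 12 with total-UMI scaling), Itpr3, an inositol trisphosphate receptor, stood at 579, 595 and 723 CPM against 214, 239 and 266 (log2 1.40 ± 0.08).

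Genes of attachment to the basement membrane, metallothioneins and glycolysis fell. Of 21 basement membrane genes, 15 fell and 3 rose (median log2 -2.34), or 15 and 1 with total-UMI scaling. Itga6, an integrin subunit of hemidesmosomes, stood at 3.87, 4.03 and 4.13 CPM against 43.5, 54.0 and 47.8 (log2 -3.60 ± 0.23) and Dst, a plakin, fell by 3.50 ± 0.17 on the log2 scale. Sdc1, a syndecan of suprabasal cells, rose (log2 0.60 ± 0.10) but was not called in 1 alternative. All 4 metallothionein genes fell. Mt4, the epithelial member, stood at 1691, 1164 and 2044 CPM against 6777, 5394 and 6237 (log2 -1.92 ± 0.17). Mt3 fell on 1 UMI against 23 (ratio 9.20, interval 1.495 to 379), a call lost in 8 of 14 alternatives. Of 16 glycolysis genes, 12 fell and 1 rose (median log2 -0.75), Eno1 from 195, 153 and 186 to 70.1, 58.5 and 59.1 CPM (log2 -1.505 ± 0.09). Hk1 rose (log2 0.99 ± 0.11). The cyclin genes Ccnd1 (-2.77 ± 0.29) and Ccnd2 (-3.15 ± 0.28) fell and the cell cycle inhibitor Cdkn2c rose (1.55 ± 0.12). Of 34 cell cycle genes 2 rose and 8 fell, a smaller share in each direction than among all genes. Rrm2, a subunit of ribonucleotide reductase, was one that rose, at 25.96, 30.8 and 13.97 CPM against 1.77, 1.74 and 1.47 (log2 3.83 ± 0.42). Ribosomal protein genes were lower in 16 of 77 and higher in 3, also a smaller share in each direction than among all genes. With total-UMI scaling 57 were lower, and their median log2 difference (-0.28) was near that of all genes (-0.24).

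Lor-high cells were compared with upper spinous cells to see which levels differed between these classes. Of 10756 genes, 2790 (25.9%) were higher in Lor-high than in upper spinous cells and 2776 (25.8%) lower, 51.7% in all. At least 2-fold, 15.1% were higher and 14.6% lower. This balance depended on the scaling: with total UMIs, 1507 were higher and 5884 lower, and the median of all genes moved from -0.11 to -0.78. The comparison uses the same upper spinous profiles as the one above, so its values stand side by side with those and are no independent evidence. Envelope genes were higher in Lor-high cells in 19 of 25 (18 with total UMIs), and kallikreins in 8 of 8 (7 with total UMIs). Lor, by which these classes were divided, is an envelope gene itself, so the gates favour rises of genes that accompany it. An order of the classes in time was not tested. Cdsn went from 1100 ± 259 CPM in upper spinous to 4420 ± 590 in Lor-high cells (log2 2.00 ± 0.39), and Wfdc21 from 1292 ± 747 to 15100 ± 1420 (log2 3.61 ± 0.68).

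A group of genes was at or near 0 in upper spinous cells and high in Lor-high cells. Lipn, an acid lipase of the epidermis, had 0 UMIs in upper spinous cells and stood at 262, 225 and 192.5 CPM in Lor-high cells, at least 382-fold higher with 3 UMIs as the floor over the class. Degs2, a ceramide hydroxylase, was at least 83.0-fold higher, Tnfaip2 at least 113-fold, the secretoglobin gene Scgb1b27 at least 187-fold and Lce3e at least 118-fold. Degs2 and Lce3e lost their calls in 1 of 16 alternatives each. Of the late cornified envelope genes of the Lce1 cluster, Lce1d was at 3.31, 4.03 and 7.62 CPM against 6171, 5583 and 13250 (log2 10.65 ± 0.27) and Lce1e was at 1.11, 0.864 and 2.86 CPM in upper spinous cells. The ligand genes Btc (log2 9.55 ± 0.24) and Tgfa (6.49 ± 0.19) and the cytokine gene Il18 (9.17 ± 0.36) were also low in upper spinous cells, with 0.866 ± 0.756, 2.23 ± 0.647 and 1.55 ± 1.65 CPM. The Lce1 genes are closely related copies, and the counting could divide reads between them.

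Other genes fell from upper spinous to Lor-high cells. Dsc3, the desmocollin of the lower layers, stood at 820, 820 and 860 CPM in lower spinous, 708, 681 and 843.5 in upper spinous and 90.5, 94.1 and 55.0 in Lor-high cells (log2 -3.26 ± 0.15 between the last classes). Axin2, a Wnt feedback gene, stood at 29.8, 28.8 and 37.5 CPM in upper spinous and 5.14, 4.04 and 2.22 in Lor-high cells (log2 -3.23 ± 0.26), and Foxn1, a forkhead factor of keratinocyte differentiation, at 26.9 ± 4.44 and 3.31 ± 1.33 (log2 -3.18 ± 0.34). Ache (log2 -2.95), Serpinb3b (-2.94), Gnptab (-2.92) and Ell3 (-2.88) were also among the largest falls. Nectin1 (log2 -2.50 ± 0.13), Gjb5 (-1.95 ± 0.09), Alox12e (-2.69 ± 0.25), Skint9 (-1.69 ± 0.11) and the protease-activated receptor gene F2rl1 (-2.85 ± 0.37) fell in their lists, and Sdc1 fell by 2.81 ± 0.13 on the log2 scale. Of 26 cholesterol genes, all higher in upper than in lower spinous cells, 9 rose and 9 fell here, against 25.9% and 25.8% of all genes tested. With total UMIs 2 rose and 20 fell, and their median log2 difference (-0.70) was near that of all genes (-0.78). Stard4 (log2 1.60 ± 0.10) and Dhcr7 (1.36 ± 0.11) rose and Scap fell (-1.43 ± 0.15).

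Some genes were higher in upper spinous cells than in both lower spinous and Lor-high cells. Basal and transitional cells did not enter this choice. Ranked by the smaller of the 2 differences, over lower spinous and over Lor-high cells, the leading 10 were Rtn4r, Csrnp2, Daglb, Edn1, Ifitm6, Tmem35a, Tcim, Nrip3, Rnf24 and Zmat3. Rtn4r, which encodes a Nogo receptor, stood at 36.4, 35.7 and 32.7 CPM in upper spinous cells, at 6.72, 6.61 and 6.22 in lower spinous and at 8.22, 9.24 and 4.43 in Lor-high cells. Its log2 differences were 2.42 ± 0.16 over lower spinous cells and -2.32 ± 0.22 from upper spinous to Lor-high cells. Tmem35a, a chaperone of nicotinic acetylcholine receptors, stood at 86.7, 84.1 and 73.4 CPM against 26.0, 29.1 and 29.6 and against 13.4, 21.9 and 14.6. Tcim stood at 115, 107 and 106 CPM against 30.4, 55.5 and 38.0 and against 21.6, 26.6 and 20.4, and Zmat3, a p53 target that binds RNA, at 89.5, 87.0 and 108 against 37.5, 33.8 and 39.8 and against 25.7, 27.7 and 41.7. For each of these 4 genes the upper spinous libraries lay above all others of both classes, which follows in part from how the genes were chosen. Daglb, a diacylglycerol lipase (log2 1.57 and -2.37), Csrnp2 (2.26 and -1.88), Edn1 (2.33 and -1.54), the endothelin 1 gene, Nrip3 (1.94 and -1.39) and Rnf24 (3.11 and -1.38) had the same shape. Ifitm6 did not hold: it stood at 17.7, 42.6 and 2.22 CPM in upper spinous and 1.03, 16.2 and 2.22 in Lor-high cells, which overlap, and its call was lost in 3 of 14 alternatives. Krt2 (log2 0.91 and -1.39) and Itpr3, which stood at 257, 245 and 301 CPM in Lor-high cells, also stood highest in upper spinous cells among these classes. With total UMIs the falls into Lor-high cells were larger, -2.99 for Rtn4r and -2.92 for Tmem35a.

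**Figure D5:**
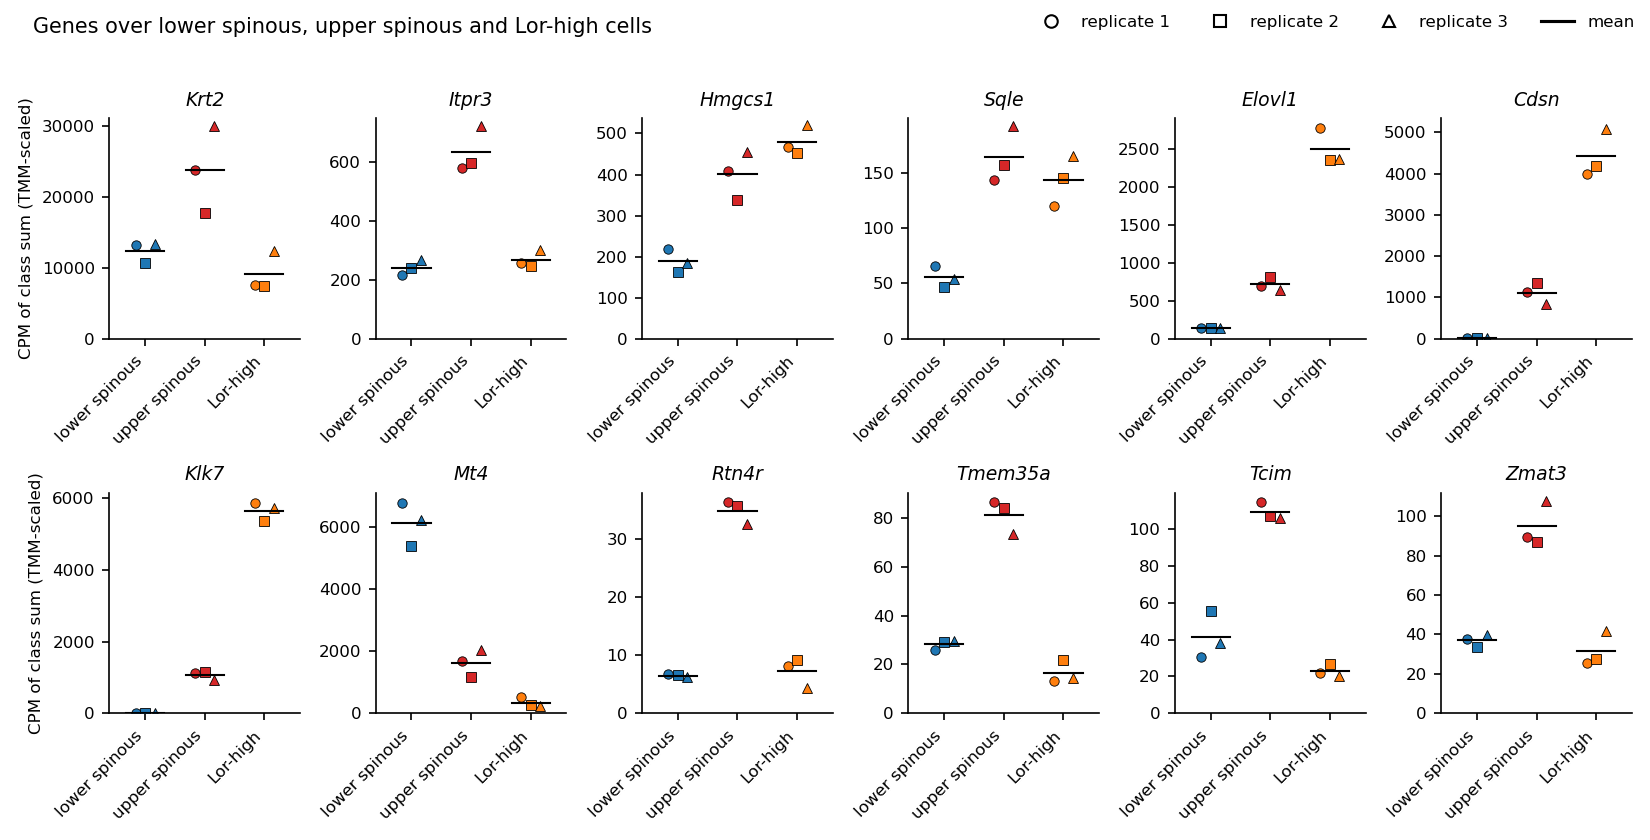
Levels of 12 genes in lower spinous, upper spinous and Lor-high cells (CPM of the class sum, linear axes from 0), with one symbol per library and the mean as a bar. Krt2, Itpr3, Rtn4r, Tmem35a, Tcim and Zmat3 are highest in upper spinous cells, Cdsn and Klk7 rise at each step, and Mt4 falls at each step.

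Members also varied among themselves. Each library's upper spinous cells were divided at the median of their marker share (0.183%, 0.182% and 0.196% of UMIs), which gave 244 members below and 246 above. Median UMIs per cell stood at 25667, 17755 and 17554 below and 23583, 18078 and 19065 above. Median Lor was 0% below in each library and 0.0123%, 0.0101% and 0.0651% above. Of 9828 genes tested, 557 (5.67%) were higher and 400 (4.07%) lower in the members above the median, 9.74% in all. At least 2-fold, 1.39% were higher and 1.47% lower. The members were divided by the rule genes themselves, so these tests describe how repeatable the differences of the other genes were over libraries. Lce1c, at 0.997, 2.17 and 1.25 CPM below the median and 15.8, 41.6 and 17.4 above, led the rises (log2 4.04 ± 0.54, adjusted p = 6.71e-05). Lce1m (2.96 ± 0.57), Lce1a1 (2.31 ± 0.51), the phosphate transporter gene Slc34a2 (2.63 ± 0.41), Ereg (2.62 ± 0.48), Ripor3 (2.26 ± 0.35), Slc15a3 (2.19 ± 0.40), Sigirr (2.00 ± 0.41) and Pacsin2 (1.89 ± 0.29) followed. Cdsn stood at 473, 711 and 279.6 CPM below and 1767, 1882 and 1292 above (log2 1.78 ± 0.41). Of the envelope genes, 12 of 25 rose and none fell, and Cgn led the tight junction genes, of which 7 of 17 rose (log2 1.24 ± 0.18). With Lor under 0.1% these counts were 7 of 24 and 2 of 16, and with Lor at 0 they were 0 of 23 and 0 of 16. Of the 20 genes whose difference within the class is reported here and in the next paragraph, 18 were not called with Lor at 0, and Mt4 alone kept its call in all the alternatives run. Lce1a1 lost its call in 4 of 14, among them without replicate 3 (log2 1.70), and Lce1m (0.99 with Lor at 0), Lce1c and Slc34a2 in 2 of 14 each. Cdsn was not called by DESeq2 or without replicate 1.

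Aqp3 and Mt4 were among the genes that were lower in the members above the median. Aqp3, the glycerol and water channel, stood at 337 ± 103 CPM in lower spinous cells, 64.2 ± 31.0 in members below the median, 15.98 ± 6.57 in members above and 7.76 ± 3.96 in Lor-high cells. Mt4 went from 6063 ± 705 through 2348 ± 667 and 762 ± 228 to 335 ± 163 CPM over the same 4 classes. Golim4 (log2 -1.77 ± 0.24), Tmem246 (-1.56 ± 0.29), Gemin7 (-1.47 ± 0.23), the tetraspanin gene Cd81 (-1.45 ± 0.27), Tns4 (-1.42 ± 0.31) and Mgst3 (-1.42 ± 0.28) were among the other leading falls. Tns4 and Mgst3 lost their calls in 4 of 14 alternatives each, with log2 differences of -0.97 and -1.08 without replicate 3. In thinned cells the Cd81 difference was 0.28 and not called. Of 26 cholesterol genes, 3 rose and none fell. Msmo1 rose by 0.76 ± 0.14, and by 0.65 without replicate 3, where it was not called. The counts of this comparison depended on the choices made. Without replicate 1, 2 or 3 there were 416, 327 and 177 genes higher and 226, 141 and 108 lower. In members with Lor under 0.1% there were 232 and 98, and in those with no Lor UMI 15 and 14, with fewer cells in each. With Lor at 0 Aqp3 differed by 0.012 and was not called, and Mt4 differed by -1.504.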

How the data were processed

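The authors deposited raw UMI counts per gene and barcode for 3 libraries, made with Cell Ranger 3.1.0 on mm10, per the submitters' processing notes. The libraries held 15926683, 24480473 and 28176712 UMIs over 31053 genes. Cells were filtered and classed by the rule in the report, with Python (scanpy 1.11.5). Scrublet marked 33 kept cells as doublets, 1 of them upper spinous, and these were kept except in an alternative. UMI counts were summed per library and class over 5 classes (basal, transitional, lower spinous, upper spinous, Lor-high). The sums were tested with edgeR 4.0.16 (quasi-likelihood, TMM, filterByExpr, R 4.3.3), with the library as a block because all classes of a library come from 1 suspension, and with Benjamini-Hochberg adjustment over all tested genes. On simulated counts the test recovered 82.2% of genes changed by a log2 of 1 and 97.8% of those changed by 2. The simulation gave all genes a single dispersion and all classes the lower spinous mean. It changed few genes, in upper spinous cells only, so these rates need not hold for the data. Counting intervals cover counting error only.

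The members and the gene lists were chosen with earlier results of these data known. Genes were named by rule. In each comparison these were the 10 largest called rises and falls at 20 CPM or more in the higher class. In each list they were the 3 most changed called members and the most changed one in the other direction. The 10 genes that most exceeded both lower spinous and Lor-high cells in upper spinous cells were also named. Not all genes that this rule names are reported here. Krt2, Dsg1a, Pkp1, Ivl, Spink5, Elovl1, Hmgcs1, Sqle, Grhl1, Klf4 and Itpr3 were added after their values were seen. Promoter windows came from RefSeq and gene coordinates from GENCODE.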

Additional observations from a re-analysis of the deposited data

How the results depend on the processing

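The call counts between upper and lower spinous cells stayed within 1.5 times of those reported in every alternative except cells thinned to 3000 UMIs, with 3441 genes (1592 higher, 1849 lower). Leaving out each library in turn gave 5321 to 5749. Between Lor-high and upper spinous cells, thinned cells gave 2912 (1284 higher, 1628 lower), total UMIs 1507 higher and 5884 lower, a marker limit of 0.2% 1777 lower, and leaving out a library 1844 to 2334 lower.

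The comparison within the upper spinous class was the least stable. Without the library block it gave 593 genes (349 higher, 244 lower), against 6019 (2906 and 3113) between upper and lower spinous cells. Leaving out a library gave 285 to 642 genes (177 to 416 higher, 108 to 226 lower). Thinned cells gave 270 (151 and 119), Lor under 0.1% 330 (232 and 98) and Lor at 0 UMIs 29 (15 and 14). The part that fewer cells and fewer UMIs had in these lower counts was not tested.

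The mean share of upper spinous among spinous cells was 24.1%. It was 33.4% and 10.7% with marker limits of 0.05% and 0.2%, 25.8% with at most 5% mitochondrial UMIs, 26.4% with cells thinned before gating, and 20.4% and 16.9% with Lor under 0.1% and at 0.

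List medians near 0 turned sign. That of the Wnt list (-0.12) was -0.072 to 0.12 when each library was left out in turn, 0.39 with the 2 classes alone, 0.10 with the lower mitochondrial limit, 0.31 in thinned cells, 0.18 and 0.059 with marker limits of 0.05% and 0.2%, and 0.17 with Lor at 0. That of the tissue factor list (-0.22) was 0.29 with the 2 classes alone, 0.34 in thinned cells, 0.062 at 0.05% and 0.17 with Lor at 0. Heat shock genes (0.04) were at -0.13 with total UMIs, -0.10 thinned, -0.066 at 0.2% and -0.082 with classes and values from separate UMIs. Calcium genes (0.21) were at -0.027 thinned and -0.071 at 0.2%, Notch genes (0.06) at -0.11 with total UMIs, Nrf2 targets (-0.42) at 0.18 thinned and acyltransferases (-0.12) at 0.20 at 0.05%.

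Among the gene differences reported, a sign turned 5 times in an alternative: Aqp3 within the class (0.012 with Lor at 0), Cd81 within the class (0.28 thinned), Krt79 (-4.52 to 0.42 when each library was left out in turn), and Dkkl1 between Lor-high and upper spinous cells (-0.41 with total UMIs and -0.11 thinned, from 0.25). A call was lost in 74 of the other gene and alternative pairs, and 2820 kept direction and call.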

Other observations

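Of 17 circadian clock genes tested, 11 were higher and 1 was lower in upper than in lower spinous cells (9 and 2 with total UMIs). In cells with no Lor UMI 4 were higher and 2 lower. Cry2, a repressor of the clock, stood at 67.4, 65.4 and 72.4 CPM against 27.95, 35.6 and 39.4 (log2 0.98 ± 0.12). The 1 that fell was Hlf, a clock output transcription factor, at 103, 104 and 115 CPM against 217.6, 236.7 and 226.9 (log2 -1.08 ± 0.09), and it was lower again in Lor-high cells, at 31.9, 34.1 and 35.5 CPM (log2 -1.66 ± 0.12). The labels give no time of day at which tissue was taken.

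Autophagy genes rose in 11 of 20 and fell in 2 between lower and upper spinous cells, and rose in 15 with none lower between upper spinous and Lor-high cells (12 and 6 with total UMIs). Gabarapl1, which encodes an autophagosome membrane protein, moved in both directions in turn: it stood at 16.1, 17.8 and 13.2 CPM in lower spinous, 6.08, 7.20 and 7.62 in upper spinous and 97.7, 92.4 and 88.2 in Lor-high cells (log2 -1.14 ± 0.20, then 3.71 ± 0.18). Atg9b, a lipid scramblase of autophagy, was at 1.08 ± 1.35 CPM in upper spinous and 318 ± 31.7 in Lor-high cells (log2 7.93 ± 0.34).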
